A study of Mus musculus with 4 samples.

Results

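The matrix metalloproteinases (MMPs) and tissue inhibitors of metalloproteinases (TIMPs) were examined as 10 genes, 7 MMPs (Mmp2, Mmp9, Mmp11, Mmp12, Mmp14, Mmp15 and Mmp19) and 3 TIMPs (Timp1, Timp2 and Timp3), chosen by symbol from the 40092 genes of the count table. All 10 were found, and all 10 passed the filter on low counts, which kept 16661 genes. The RNA came from alveolar type II (AT2) cells, the surfactant-producing progenitors of the alveolus, sorted by FACS on day 14 after intratracheal bleomycin, a drug that injures the epithelium and leads to fibrosis. Cells of 2 Ctrl libraries (Alkbh5 flox/+; Sftpc-CreERT2; Rosa26-mTmG) were compared with cells of 2 A5-CKO libraries (Alkbh5 flox/flox; Sftpc-CreERT2; Rosa26-mTmG). Every mouse received tamoxifen, so the Ctrl cells also had 1 floxed allele open to deletion. The Cre recombinase was driven from the Sftpc locus and GFP from the reporter marked recombined cells, so the sort followed cells that had expressed Sftpc and any descendants that had since changed. The mice were on a C57BL/6 background, their age is not given in the sources used here, and the labels do not say whether a library was made from 1 mouse or several. The p-values therefore measure the spread between these libraries only.

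MMPs are zinc-dependent endopeptidases that cut collagens, laminins, elastin and other proteins outside the cell. They are made as inactive proenzymes, and most are secreted, while the membrane-type MMPs stay anchored at the cell surface. TIMPs bind the active site of MMPs and block it, and TIMP2 together with MMP14 also takes part in the activation of proMMP2. In the injured lung these genes are expressed by epithelial cells, fibroblasts, macrophages and neutrophils, each with its own set.

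The total count ranged from 18144865 to 20811757 per library, and a count of 3, taken here as the floor of detection, corresponded to 0.128 to 0.177 CPM (the count scaled to a library of 1000000 reads, with TMM factors). This floor covers counting error only. Alkbh5, the targeted gene, had 81.7 and 152 CPM in Ctrl 1 and Ctrl 2 and 19.3 and 36.6 CPM in A5-CKO 1 and A5-CKO 2, lower in both A5-CKO libraries (log2 fold change -2.06, standard error, SE, 0.46, adjusted p = 0.528 from edgeR). The AT2 markers Sftpc, Sftpa1 and Sftpb were detected in every library. Of the AT1 markers, Emp2 had 829 to 1022 CPM and Hopx had 63.3 to 146 CPM. The AT1 markers Ager (2 to 6 counts per library) and Pdpn (0 to 17 counts) were too low to be tested. Markers of other cells were also present. The 14 macrophage markers summed to 4151 and 3449 CPM in Ctrl 1 and A5-CKO 2 but to 656 and 542 CPM in Ctrl 2 and A5-CKO 1, so that the libraries differed in these transcripts across the genotypes.

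Promoter sequences were available for 7 of the 10 genes (RefSeq, GRCm38.p6), and 4 are shown, each as the 250 bases before an annotated start, 5′ to 3′ on the strand of the gene. Mmp12 and Timp1 had the widest range between libraries, Mmp14 was high in the same libraries as Timp1, and Mmp11 varied least. Capitals mark matches to the AP-1 element TGAGTCA, the ETS-type PEA3 element AGGAAG and the GC box GGGGCGG, each searched on both strands, and to TATAAA, searched on the given strand.

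Mmp12 (chr9:7347124-7347373, + strand): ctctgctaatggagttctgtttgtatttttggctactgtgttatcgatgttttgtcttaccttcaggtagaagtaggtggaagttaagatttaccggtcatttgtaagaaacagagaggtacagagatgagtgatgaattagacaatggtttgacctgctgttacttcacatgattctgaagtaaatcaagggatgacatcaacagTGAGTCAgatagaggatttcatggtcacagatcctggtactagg
Timp1 (chrX:20869916-20870165, + strand): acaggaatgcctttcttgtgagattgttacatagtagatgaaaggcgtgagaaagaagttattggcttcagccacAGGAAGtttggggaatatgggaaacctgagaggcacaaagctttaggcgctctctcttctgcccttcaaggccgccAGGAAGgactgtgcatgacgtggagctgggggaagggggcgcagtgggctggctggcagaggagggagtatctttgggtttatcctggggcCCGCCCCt
Mmp14 (chr14:54431348-54431597, + strand): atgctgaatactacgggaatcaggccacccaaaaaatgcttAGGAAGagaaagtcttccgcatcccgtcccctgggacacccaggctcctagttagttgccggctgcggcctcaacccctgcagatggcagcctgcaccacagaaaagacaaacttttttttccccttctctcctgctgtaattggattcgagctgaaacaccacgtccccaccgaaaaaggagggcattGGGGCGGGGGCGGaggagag
Mmp11 (chr10:75932503-75932752, - strand): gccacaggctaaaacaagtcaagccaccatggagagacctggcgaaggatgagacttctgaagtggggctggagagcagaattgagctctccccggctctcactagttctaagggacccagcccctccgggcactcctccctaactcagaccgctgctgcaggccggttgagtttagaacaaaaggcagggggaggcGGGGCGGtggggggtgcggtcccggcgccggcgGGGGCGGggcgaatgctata

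The Mmp12 window shown, which belongs to an annotated start inside the gene, held an AP-1 match beginning 44 bases before the start (position -44). A second Mmp12 window, before the start of the gene and not shown, held no AP-1 match and a PEA3 match at -87 on the opposite strand. AP-1 is the Fos and Jun factor long known at MMP promoters. None of the other 7 windows of these genes held that match, and 4.46% of 32851 annotated promoter windows of the same length did. Timp1 held PEA3 matches at -175 and -99 and a GC box at -8 on the opposite strand. Mmp14 held a PEA3 match at -209 and GC boxes at -20 and -14, which share a base, and Mmp11 held GC boxes at -53 and -20. PEA3 matches were found in 29.5% and GC boxes in 20.97% of all windows, and TATAAA, present in 7.59% of all windows, was found in none of the 8. A match is a string of letters and was not tested for binding.

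Whether loss of Alkbh5 changed the expression of MMPs and TIMPs in injured AT2 cells was asked first across all 10 genes. Mmp15 lay lower and Timp3 higher in each A5-CKO library than in either Ctrl library, and the other 8 genes overlapped between the genotypes. At an adjusted p under 0.05, edgeR's quasi-likelihood test called none of the 10 and 0% of all genes tested, and DESeq2 on the same genes called none of the 10 and 0.384% of all. At an unadjusted p under 0.05 there was 1 of the 10, Mmp15, where 9.18% of all genes reached that level. Of all genes tested, 20.3% were higher in both A5-CKO libraries and 23.5% were lower in both, so 1 gene of 10 in each class lay below the background. The median log2 fold change of the 10 genes was 0.36, with 8 genes above 0 and 2 below, beside a median of -0.02 for all genes tested, and it was -0.86 without A5-CKO 2.

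**Figure D1:**
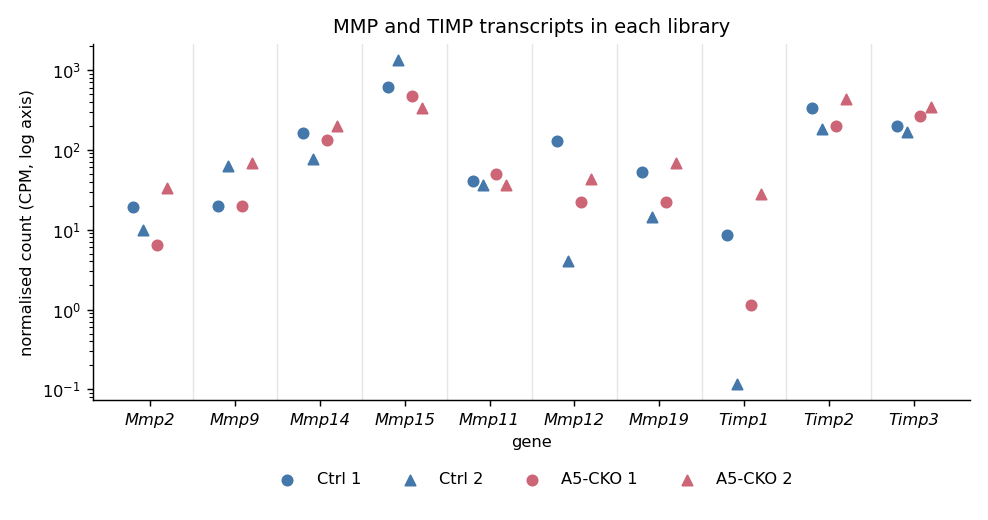
Normalised counts (CPM, log axis) of the 10 MMP and TIMP genes in each library, with Ctrl in blue, A5-CKO in red, circles for replicate 1 and triangles for replicate 2. The red points lie below the blue ones for Mmp15 and above them for Timp3, and for Mmp12 and Timp1 the libraries of a genotype lie far apart.

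Levels between genes were compared as CPM per kilobase of merged exons (GENCODE M21). On this scale Mmp15 had the highest mean level over the 4 libraries, at 126, followed by Timp2 at 73.8, Timp3 at 29.8 and Mmp14 at 23.9. Mmp11 (14.7), Mmp9 (12.0), Mmp19 (11.2), Timp1 (10.6), Mmp12 (6.89) and Mmp2 (5.08) followed. Mmp15 ranged from 60.9 to 245 and Timp2 from 46.1 to 111 between libraries, so these neighbours overlapped, and Timp2 was above Mmp15 in A5-CKO 2. The ranges of Timp3 (20.7 to 41.8) and Mmp14 (12.8 to 33.6) overlapped too, while both lay below Timp2. Among Mmp14 and the 6 genes below it, each gene overlapped with its neighbours in this order. The merged exons of Mmp12 cover 7237 bases, which lowers its level on this scale relative to that of a shorter transcript.

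The membrane-type enzymes Mmp15 and Mmp14 had the highest mean levels per kilobase of the 7 MMPs, although in Ctrl 2 Mmp14 (12.8) lay below Mmp9 (17.7) and Mmp11 (13.0). Mmp15, which encodes MT2-MMP (chromosome 8, 95352296 to 95374293, GRCm38.p6), had 605 and 1322 CPM in Ctrl 1 and Ctrl 2, and 473 and 329 CPM in A5-CKO 1 and A5-CKO 2. Ctrl 2 stood highest, and both A5-CKO libraries lay below Ctrl 1, the lower of the Ctrl libraries. The mean was 964 ± 507 CPM in Ctrl and 401 ± 102 CPM in A5-CKO (SD, n = 2 each), with a log2 fold change of -1.27 (SE 0.47, adjusted p = 0.528, edgeR), a 2.41-fold lower level that did not pass the threshold. Without Ctrl 2 the difference was -0.64, and it stayed below 0 with each library left out.

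The summed AT2 markers moved with Mmp15, although not every single marker did. Of the 12 markers, 9 were lower in both A5-CKO libraries, beside 23.5% of all genes tested. The other 3, Abca3, Lamp3 and Etv5, overlapped between the genotypes. Lamp3 had 2418 and 2182 CPM in Ctrl 1 and Ctrl 2 and 2685 and 1313 CPM in A5-CKO 1 and A5-CKO 2. The summed level of the 12 was 59048 and 84818 CPM in Ctrl and 43842 and 36271 CPM in A5-CKO. This sum had the same order of libraries as Mmp15. Reads of Sftpb that fell on a second copy of that gene are not in this sum. Per 1000 CPM of AT2 markers, Mmp15 had 10.3 and 15.6 CPM in the Ctrl libraries and 10.8 and 9.06 CPM in the A5-CKO libraries, and on this scale the genotypes overlapped. In sorted bulk cells, fewer cells of a type and less RNA per cell cannot be told apart, and the part of the AT2 markers in the result for Mmp15 was not tested.

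Mmp14, which encodes MT1-MMP, a pericellular collagenase and activator of proMMP2 (chromosome 14, 54431598 to 54442456), had 161 and 76.3 CPM in Ctrl 1 and Ctrl 2 and 133 and 200.1 CPM in A5-CKO 1 and A5-CKO 2. The highest value was in A5-CKO 2 and the lowest in Ctrl 2, and A5-CKO 1 lay between the Ctrl libraries. Its log2 fold change was 0.49 (SE 0.43, adjusted p = 0.699, edgeR), 1.19 without Ctrl 1 and 0.0088 without Ctrl 2.

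The gelatinases Mmp2 and Mmp9 digest denatured collagen and basement membrane collagen IV. Mmp2 (chromosome 8, 92827290 to 92853421) had 19.0 and 9.83 CPM in Ctrl 1 and Ctrl 2 and 6.38 and 33.3 CPM in A5-CKO 1 and A5-CKO 2. The A5-CKO libraries held both its lowest and its highest value, and the Ctrl libraries lay inside that range. The log2 fold change of 0.46 (SE 0.75, adjusted p = 0.848, edgeR) became -1.21 without A5-CKO 2. The 13 fibroblast markers, among them Pdgfra, Pdgfrb and Dcn, summed to 205 and 148 CPM in Ctrl and 77.5 and 271 CPM in A5-CKO, in the same order of libraries as Mmp2. Acta2, Tagln, Dcn and Postn had their highest values in A5-CKO 2, as did Mmp2. Another 4 of the 13, Inmt, Tcf21, Mfap4 and Fbln1, were instead lower in both A5-CKO libraries, as were 23.5% of all genes tested. Inmt had 48.3 and 52.7 CPM in Ctrl and 22.5 and 10.3 CPM in A5-CKO. The part of the fibroblast markers in the Mmp2 levels was not tested.

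Mmp9, known as a neutrophil and macrophage gelatinase (chromosome 2, 164940326 to 164955850), had 19.6 and 62.6 CPM in Ctrl 1 and Ctrl 2 and 19.5 and 68.1 CPM in A5-CKO 1 and A5-CKO 2. Each genotype thus had a low and a high library at nearly the same levels. Between genotypes the log2 fold change was 0.09 with an SE of 0.71 (adjusted p = 0.971, edgeR), and it was -1.11 without A5-CKO 2 and 1.13 without Ctrl 2. The 8 neutrophil markers, among them S100a8, S100a9 and Retnlg, summed to 367 and 705 CPM in Ctrl 1 and Ctrl 2 and to 280 and 759 CPM in A5-CKO 1 and A5-CKO 2, high in the same libraries. Mmp8, the neutrophil collagenase and no member of the 10, had 6.09, 18.2, 4.26 and 30.2 CPM in that order of libraries. Of the 8 neutrophil markers, 5 were highest in A5-CKO 2 and 3, Ngp, Camp and Ly6g, were highest in Ctrl 2. Ly6g had 1.42 and 5.41 CPM in Ctrl and 0.815 and 1.58 CPM in A5-CKO. The part of these markers in the Mmp9 levels was not tested.

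Mmp12, the macrophage elastase (chromosome 9, 7344397 to 7360461), differed most within a genotype among the MMPs. It had 130.4 CPM in Ctrl 1 and 4.01 CPM in Ctrl 2 (2205 and 69 counts), 32.5-fold apart, and 22.05 and 43.0 CPM in A5-CKO 1 and A5-CKO 2 (487 and 1006 counts). The Ctrl libraries enclosed both A5-CKO libraries, and the log2 fold change of -1.05 (SE 1.20, adjusted p = 0.767, edgeR) was smaller than its error. It turned to 3.09 without Ctrl 1 and to 0.44 in limma voom. As a share of the summed macrophage markers, Mmp12 came to 3.14% and 0.612% in Ctrl 1 and 2 and to 4.07% and 1.25% in A5-CKO 1 and 2, so it did not follow these markers in a fixed ratio. Of the defining markers, Cd68 had 157 and 54.6 CPM in Ctrl and 34.1 and 153 CPM in A5-CKO, and Adgre1 had 41.9 and 8.61 CPM and 6.79 and 62.8 CPM. Ptprc, which all leukocytes carry, had 50.9 and 22.5 CPM in Ctrl and 84.3 and 82.8 CPM in A5-CKO, another order than the macrophage sum. Their part in the Mmp12 levels was not tested.

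Mmp19, a secreted MMP that cuts basement membrane proteins (chromosome 10, 128790910 to 128800827), had 53.2 and 14.3 CPM in Ctrl 1 and Ctrl 2 and 21.96 and 68.8 CPM in A5-CKO 1 and A5-CKO 2, with the high values in Ctrl 1 and A5-CKO 2. Its difference on the log2 scale was 0.43 (SE 0.72, adjusted p = 0.854, edgeR), 1.74 without Ctrl 1, and below 0 without Ctrl 2 (-0.26) or without A5-CKO 2 (-0.65). Mmp11, or stromelysin 3, an MMP activated inside the cell by furin (chromosome 10, 75923221 to 75932502), was the steadiest of the 10 genes. It had 40.4 and 36.1 CPM in Ctrl 1 and Ctrl 2 and 50.3 and 36.7 CPM in A5-CKO 1 and A5-CKO 2, a range of 1.39-fold over all libraries. Its log2 fold change was 0.19 (SE 0.32, adjusted p = 0.858, edgeR), and -0.07 without A5-CKO 1.

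Among the inhibitors, Timp3 was higher in A5-CKO in both libraries. TIMP3 binds to the matrix and inhibits ADAM proteases, ADAM17 among them, as well as MMPs. The gene (chromosome 10, 86300412 to 86349505) had 198 and 169 CPM in Ctrl 1 and Ctrl 2 and 265 and 340.1 CPM in A5-CKO 1 and A5-CKO 2. It averaged 183 ± 20.5 CPM in Ctrl and 302 ± 53.2 CPM in A5-CKO (SD, n = 2 each). On the log2 scale the difference was 0.72 (SE 0.32, adjusted p = 0.528, unadjusted p = 0.0589, from the edgeR model fitted across all genes), a 1.65-fold difference that did not pass the threshold. With 1 library at a time left out it ran from 0.50 to 0.90. Of the 8 AT1 markers tested, 4 (Hopx, Cav1, Akap5 and Clic5) were higher and 1, Aqp5, was lower in both A5-CKO libraries. These classes held 20.3% and 23.5% of all genes tested. The other 3, Emp2, Rtkn2 and Igfbp2, overlapped between the genotypes. Hopx had 124 and 63.3 CPM in Ctrl and 146 and 143 CPM in A5-CKO, and Aqp5 had 981 and 951 CPM and 479 and 636 CPM. The median log2 fold change of the 8 was 0.60, while the sum of all 10 AT1 markers, most of it Emp2 and Aqp5, ranged only from 2154 to 2336 CPM. The part of the AT1 markers in the Timp3 levels was not tested.

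Timp2, which inhibits MMPs and bridges proMMP2 to MMP14 (chromosome 11, 118301061 to 118355411), had 336 and 179.6 CPM in Ctrl 1 and Ctrl 2 and 199 and 434 CPM in A5-CKO 1 and A5-CKO 2. Ctrl 1 and A5-CKO 2 were again the high libraries. Timp2 had a log2 fold change of 0.30 (SE 0.49, adjusted p = 0.849, edgeR), which turned to -0.12 without Ctrl 2 and to -0.40 without A5-CKO 2.

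Timp1, an inducible inhibitor that rises in injured and fibrotic tissue (chromosome X, 20870166 to 20874737), had 143 and 2 counts in Ctrl 1 and Ctrl 2 and 25 and 650 counts in A5-CKO 1 and A5-CKO 2. As CPM these were 8.46, 0.116, 1.13 and 27.8, and the 2 counts of Ctrl 2 allow 0.0141 to 0.420 CPM (exact Poisson 95% interval, counting error only). Ctrl 2, at under 3 counts, was not above the floor of detection. The libraries of a genotype lay further apart than the genotypes, with A5-CKO 2 24.5-fold above A5-CKO 1. The fitted log2 fold change of 1.75 (SE 1.70, adjusted p = 0.720, edgeR) turned to -1.94 without A5-CKO 2, and the fit without Ctrl 1 gave 6.97 against the 2 counts of Ctrl 2.

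**Figure D2:**
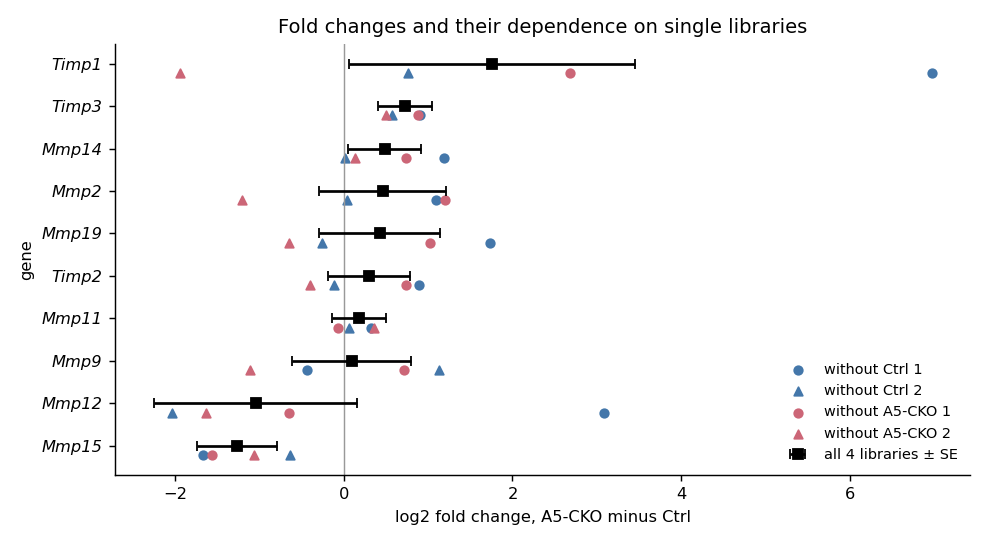
Log2 fold change (A5-CKO minus Ctrl) of each gene with all 4 libraries (black squares, bars show the standard error) and with each library left out (coloured points). Mmp15 stays below 0 and Timp3 and Mmp14 stay above 0 in every case, whereas Timp1 runs from -1.94 to 6.97 and Mmp12 from -2.04 to 3.09.

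Of the 10 genes, 6 were highest in the same pair of libraries, 1 from each genotype. Mmp2, Mmp12, Mmp14, Mmp19, Timp1 and Timp2 had their higher values in Ctrl 1 and A5-CKO 2, a pattern held by 15.6% of all genes tested. A5-CKO 2 was the highest library for 7 of the 10 genes and for 3367 of the 16661 genes tested. The sum of the macrophage markers given above was high in the same libraries. The summed level of the 9 transitional epithelial markers, of which Krt8 and Krt18 are the most abundant, was high there too, at 3306 and 1423 CPM in Ctrl 1 and Ctrl 2 and 2240 and 3594 CPM in A5-CKO 1 and A5-CKO 2. Not every marker of that list followed the sum. In each A5-CKO library 3 of the 9 (Areg, Hbegf and Cdkn1a) lay above both Ctrl libraries, as did 20.3% of all genes tested. Areg had 39.5 and 23.7 CPM in Ctrl and 69.0 and 69.5 CPM in A5-CKO, and Hbegf had 53.6 and 32.2 CPM and 121.7 and 85.7 CPM. The sum of the 13 fibroblast markers was also highest in this pair, at 205 CPM in Ctrl 1 and 271 CPM in A5-CKO 2. It was 148 CPM in Ctrl 2 and 77.5 CPM in A5-CKO 1. Of these 13, 4 were instead lower in both A5-CKO libraries, as were 23.5% of all genes tested. The 7 plasma cell and B cell markers, a sum made mostly of Igkc and Jchain, came to 2199 and 2313 CPM in Ctrl 1 and A5-CKO 2 and to 408 and 536 CPM in Ctrl 2 and A5-CKO 1. The B cell genes Ighm, Cd79a and Cd79b did not follow it and were lower in both A5-CKO libraries, as were 23.5% of all genes tested. Ighm had 31.4 and 12.3 CPM in Ctrl and 4.71 and 7.95 CPM in A5-CKO. Ms4a1, another B cell gene, overlapped between the genotypes, with 5.56 and 4.31 CPM in Ctrl and 4.66 and 2.31 CPM in A5-CKO. The 10 endothelial markers, with Pecam1, Cdh5 and Kdr, showed another order, with 211 and 282 CPM in Ctrl and 141 and 279 CPM in A5-CKO, and Cldn5 was at 0 in all. The part of these cells in the levels of the 6 genes was not tested.

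**Figure D3:**
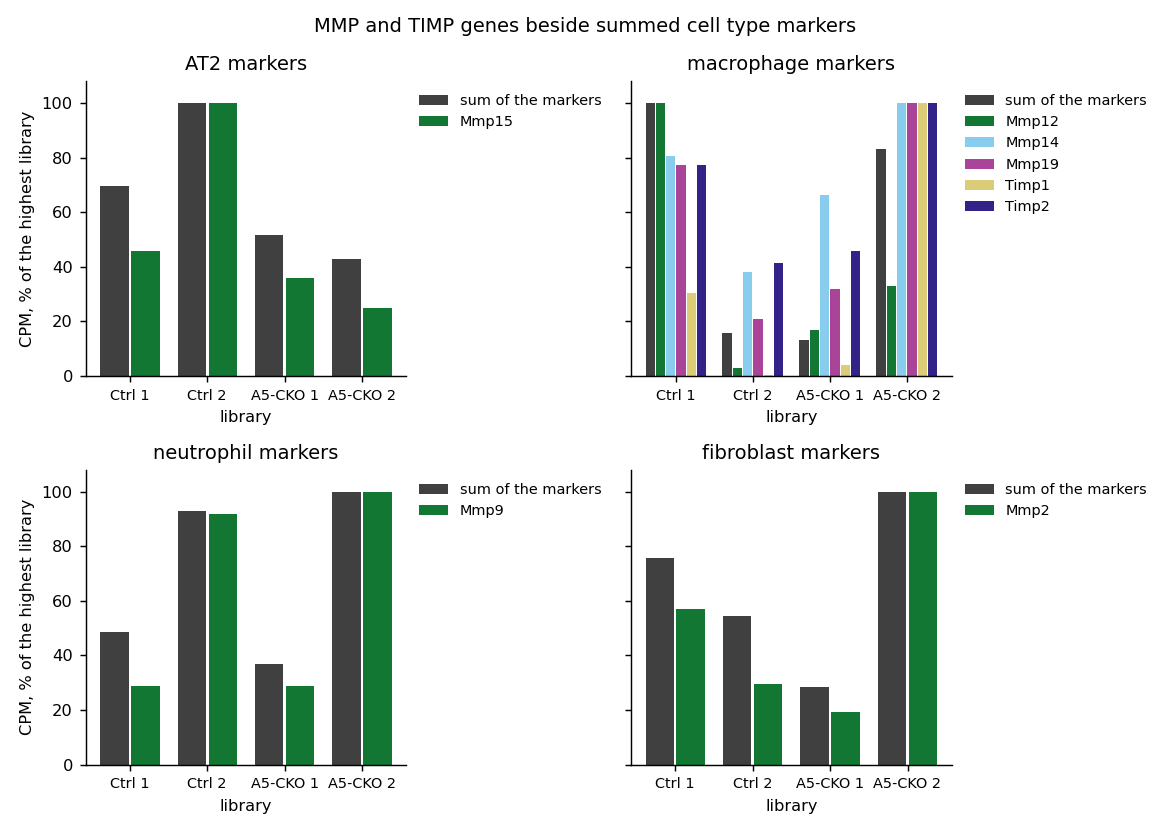
CPM of MMP and TIMP genes (colours) and of summed cell type markers (dark bars) in each library, as a percent of the library where each is highest. Mmp15 is highest in Ctrl 2 with the AT2 markers, Mmp9 in A5-CKO 2 with the neutrophil markers and Mmp2 in A5-CKO 2 with the fibroblast markers, and the genes set beside the macrophage markers are higher in Ctrl 1 and A5-CKO 2 than in the other libraries. The pairs were chosen after their values were seen.

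The make-up of the protease and inhibitor transcripts was compared per library on the length-scaled levels. The 7 MMPs summed to 198 and 296 CPM per kilobase in Ctrl 1 and Ctrl 2 and to 145 and 162 in A5-CKO 1 and A5-CKO 2. Mmp15 made up 56.6% and 82.8% of these sums in Ctrl and 60.5% and 37.5% in A5-CKO. The 3 TIMPs summed to 120.1 and 67.0 CPM per kilobase in Ctrl and to 84.9 and 185 in A5-CKO, with Timp2 at 60.2% to 71.9% of the sum in every library. The ratio of the TIMP sum to the MMP sum came to 0.606 and 0.226 in the Ctrl libraries and to 0.587 and 1.14 in the A5-CKO libraries, so the genotypes overlapped. Ctrl 2, with the highest Mmp15 and the lowest Timp1, Timp2 and Timp3, had the lowest ratio. A5-CKO 2, with the lowest Mmp15 and the highest Timp1, Timp2 and Timp3, had the highest.

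**Figure D4:**
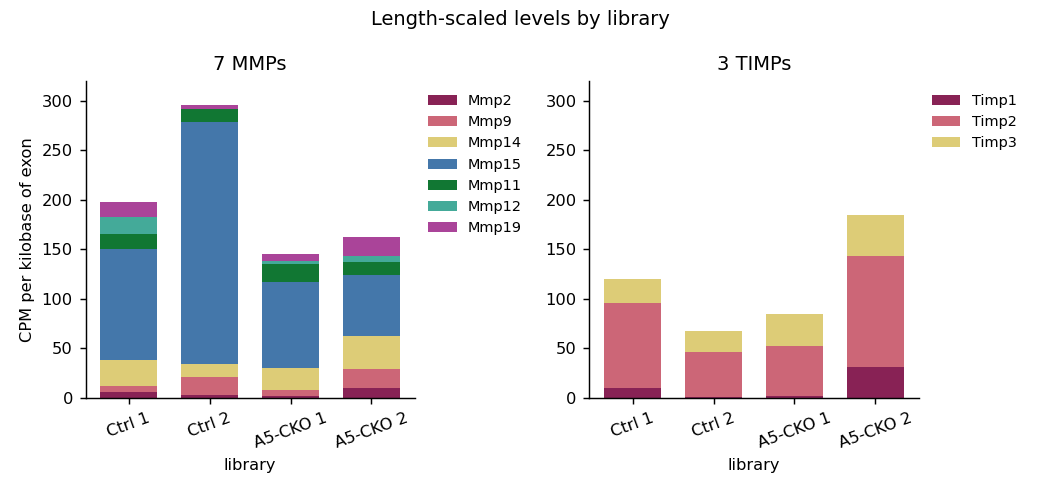
Stacked levels (CPM per kilobase of exon) of the 7 MMPs and of the 3 TIMPs in each library. Mmp15 is the largest part of the MMP bar in each library, and the TIMP bar exceeds the MMP bar only in A5-CKO 2.

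Of the 17 other MMP and TIMP genes, 8 had enough counts to be tested, and none was called. Their median log2 fold change was -0.52, with 3 above 0 and 5 below. In both A5-CKO libraries 3 were lower and none higher, beside 23.5% and 20.3% of all genes tested. Mmp24, a membrane-type MMP best known from the nervous system, had the highest mean CPM of them, although not per kilobase (mean 5.33, and 6.05 for Mmp8), with 30.6 and 28.5 CPM in Ctrl and 22.2 and 18.5 CPM in A5-CKO (log2 fold change -0.54, SE 0.34, adjusted p = 0.589, edgeR). Mmp23 had 5.09 and 2.39 CPM in Ctrl and 8.10 and 4.87 CPM in A5-CKO. Mmp7, the epithelial matrilysin, was chosen after its values were seen. It had 14 and 4 counts in Ctrl 1 and Ctrl 2 and 0 counts in both A5-CKO libraries, too few reads for a test. The floor of 3 counts was 0.136 CPM in A5-CKO 1 and 0.128 CPM in A5-CKO 2. Mmp1a and Mmp20 had no counts in any library.

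The regulators of MMPs showed no call among 21 genes tested of 22, with a median log2 fold change of 0.06. In both A5-CKO libraries 1 gene was higher and 5 were lower, beside 20.3% and 23.5% of all genes tested. Lcn2, whose product binds MMP9, had 3784 and 3073 CPM in Ctrl 1 and Ctrl 2 and 2226 and 2529 CPM in A5-CKO 1 and A5-CKO 2 (log2 fold change -0.53, SE 0.39, adjusted p = 0.641, edgeR). Bsg, or EMMPRIN, a surface protein known to induce MMPs, had 1390.4 and 1383 CPM in Ctrl and 836 and 811 CPM in A5-CKO (log2 fold change -0.75, SE 0.34, adjusted p = 0.528). Cd63, a tetraspanin receptor for TIMP1, had 1080.3 and 545 CPM in Ctrl and 444 and 516 CPM in A5-CKO, and its log2 fold change of -0.76 became -0.12 without Ctrl 1. All 3 were lower in both A5-CKO libraries.

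ADAM and ADAMTS proteases are relatives of the MMPs that shed surface proteins or cut proteoglycans. Of 18 genes of these families, with the ADAMTS-like gene Adamtsl4 among them, 17 were tested and none was called. Their median log2 fold change was 0.52, with 14 above 0 and 3 below, where all genes tested had 8183 above and 8478 below. Higher in both A5-CKO libraries were 4 of the 17, near the 20.3% of all genes tested. None was lower in both, where 23.5% of all genes tested were. A5-CKO 2 was the highest library for 10 of the 17. Adamts1, an aggrecanase-type protease, had 33.5 and 47.2 CPM in Ctrl 1 and Ctrl 2 and 94.3 and 83.6 CPM in A5-CKO 1 and A5-CKO 2. Its log2 fold change was 1.14 (SE 0.31, adjusted p = 0.528, edgeR), and leaving out 1 library at a time gave 0.97 to 1.36. The most abundant were Adam19, Adam9 and Adam10. Adam9 had 121 and 93.3 CPM in Ctrl and 149.6 and 208 CPM in A5-CKO, Adam10, a main sheddase of the cell surface, had 122 and 76.9 CPM in Ctrl and 123 and 163 CPM in A5-CKO, and Adam19 overlapped between the genotypes, with 141 and 396 CPM in Ctrl and 253 and 158 CPM in A5-CKO.

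Among 20 matrix proteins that MMPs can cut, 19 were tested and none was called, with a median log2 fold change of 0.69. Of the 19, 13 were above 0 and 6 below. A5-CKO 2 was the highest library for 9 of the 19, and for 3367 of the 16661 genes tested. In both A5-CKO libraries 4 were higher and 4 lower, near the shares of all genes tested (20.3% higher and 23.5% lower). Col4a3, a chain of the mature alveolar basement membrane, had 73.5 and 35.1 CPM in Ctrl 1 and Ctrl 2 and 146 and 113 CPM in A5-CKO 1 and A5-CKO 2 (log2 fold change 1.25, SE 0.41, adjusted p = 0.528, edgeR). Col4a1 and Col4a2, the common collagen IV chains, were instead lower in both A5-CKO libraries, Col4a1 with 965 and 910.2 CPM in Ctrl and 544 and 827 CPM in A5-CKO, and their log2 fold changes were -0.45 and -0.53. Fn1, or fibronectin, followed the pair of libraries of Timp1, with 916 and 1169.8 CPM in Ctrl 1 and A5-CKO 2 and 76.2 and 74.8 CPM in Ctrl 2 and A5-CKO 1.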

How the data were processed

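Gene counts from RNA-seq of AT2 cells (day 14 after bleomycin) were used, 2 Ctrl and 2 A5-CKO libraries. The authors trimmed reads with TrimGalore 0.6.10, removed ribosomal RNA reads, aligned with HISAT2 2.2.1 to mm10, removed duplicates with sambamba, counted with featureCounts 2.0.3 and deposited whole read counts per gene, not normalized. The counting is described under another assay in the methods and was taken as that of the RNA-seq. Its strand setting is not given in the sources used here, so overlapping and antisense genes are uncertain.

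Counts were fitted with edgeR 4.0.16 in R 4.3.3 (TMM, filterByExpr, glmQLFit, glmQLFTest, Benjamini-Hochberg adjustment, 16661 genes). Common dispersion came to 0.173 (biological coefficient of variation 41.6%). Depth was 18144865 to 20811757 counts per library. Alternatives were other scaling factors, DESeq2 1.42.0, limma voom 3.58.1, other filters, the replicate number as a block, splines with 4 degrees of freedom on GC content and length (15237 genes, 91.5% of those tested), and each library left out. The fit was tested on simulated counts. No member has a second copy in the table, so adding copies was not run. The members and lists were chosen with earlier results of these data known. All members are named. Of the other lists, genes with an unadjusted p under 0.05 and the 3 with the highest mean CPM are named, and of marker lists the first 3 or others, chosen after their values were seen, that differ from the sum or carry it. Coordinates are from RefSeq (GRCm38.p6), exon lengths from GENCODE M21, whereas the authors counted on an NCBI annotation.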

Additional observations from a re-analysis of the deposited data

How the results depend on the processing

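None of the 10 MMP and TIMP genes had an adjusted p under 0.05 in any of the 14 alternatives run. Over these, 127 of 139 fold changes of single genes kept their direction. Mmp12 turned from -1.05 to 0.44 in limma voom and to 0.37 with the replicate number as a block. Leaving out each library in turn gave log2 fold changes from -1.21 to 1.19 for Mmp2, -1.11 to 1.13 for Mmp9, -0.072 to 0.36 for Mmp11, -2.04 to 3.09 for Mmp12, -0.65 to 1.74 for Mmp19, -1.94 to 6.97 for Timp1 and -0.40 to 0.89 for Timp2, and the median of the 10 ran from -0.86 to 1.00. Mmp15, Mmp14 and Timp3 kept their direction in all alternatives. With total counts only, the median of all genes moved from -0.02 to 0.30 and that of the 10 genes to 0.66. Where edgeR called 0 genes, DESeq2 called 64 after the edgeR filter and 59 after its own, and it gave Alkbh5 -2.01 and -2.02 with adjusted p of 0.0214 and 0.0224, against 0.411 to 0.878 in the other alternatives. What caused these differences was not tested. Genes with an unadjusted p under 0.05 numbered 1530, 754 with the replicate block and 746 without A5-CKO 1. The deviations of same-numbered libraries from their group mean correlated at -0.37 (across genes), and nothing in the labels pairs them. Under the block Mmp15 had -1.18 and Timp3 0.72, with no gene called. With 2 libraries a group, the spread between libraries limits these comparisons, and Timp1 in Ctrl 2, at 2 counts, lay under the floor of detection.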
